A study of Mus musculus with 4 samples.

Results

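Igf1 encodes insulin-like growth factor 1, and the chromatin described here is the window set for it on chromosome 10, 87310000 to 87420000, which is 110 kb of chr10. The members are all called intervals of FOXA2 or RNA polymerase II that overlap this window by at least 1 bp. There are 6 of them, of 35977 intervals in the 4 lists of the series. By list these are 1 of 14818 adult POL2 intervals, 2 of 9972 POL2 intervals at postnatal day 12, 3 of 10373 adult FOXA2 intervals and 0 of 814 FOXA2 intervals at postnatal day 12. The window was chosen by measured values, the width of its adult POL2 interval, the little POL2 cover there at the younger stage and the FOXA2 intervals inside, so the values below describe the place and carry no test. No interval crossed an edge of the window, and the nearest one outside was an adult FOXA2 interval 51.2 kb to the left of it.

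IGF1 is a secreted growth factor that signals through the receptor tyrosine kinase IGF1R. In the rodent uterus it is known as a gene induced by estrogen, made largely by stromal cells and acting on the proliferation of the epithelium. FOXA2 is a forkhead transcription factor that marks the glandular epithelium of the uterus. RNA polymerase II with serine 2 of its C-terminal repeat phosphorylated, called POL2 in the labels, is the form that travels along gene bodies during elongation, so an interval of it tends to lie over a gene that is being transcribed.

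The series profiled whole mouse uterus by chromatin immunoprecipitation and sequencing at 2 stages, postnatal day 12 (PD12), when glands develop, and adult pseudopregnancy, the hormonal state after a sterile mating. The adult label names days 2.5 and 3.5 together for 1 library. The labels do not say how these days were joined, nor the strain, the adult age or the number of animals, and they name no genotype or treatment at either stage. Each antibody was used at each stage in 1 library, so there are no replicates, no p-value is given, and a difference between stages cannot be told apart from a difference between 2 libraries. The lists hold positions only, without height or read count, so depth is unknown and absence from a list is not absence of binding. In whole tissue, fewer cells of a type and less signal per cell cannot be told apart, and FOXA2 and POL2 at the same place need not be in the same cells.

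Positions are those of the files, and the window was set for Igf1 as mm9. The files name no build and no mm9 annotation was used here, so the exon or intron at each interval is not stated, and that the window holds Igf1 rests on the rule that set it. In the GRCm38 gene table at hand, used for gene order alone, Igf1 overlaps the long noncoding gene Igf1os. The assay does not separate strands, so POL2 on Igf1 and on an overlapping transcript cannot be told apart.

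The RefSeq promoter table, on GRCm38.p6, holds 1 start for Igf1, on the plus strand. The 250 bases before that start are shown as the sequence searched for the forkhead motif, at chr10:87860861-87861110 of that build, which must not be read against the positions of the intervals.
Igf1 promoter: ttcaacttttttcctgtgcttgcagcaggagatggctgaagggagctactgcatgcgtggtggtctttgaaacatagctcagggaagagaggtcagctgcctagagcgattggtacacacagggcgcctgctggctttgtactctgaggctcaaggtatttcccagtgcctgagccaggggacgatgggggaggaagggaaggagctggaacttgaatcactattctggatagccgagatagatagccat
The forkhead motif was searched as TGTTTAC and TATTTAC on both strands, and 0 matches were found, so no base is in capitals. Of 32851 promoters in the table, 5.76% held either form in the same 250 bases. This says only that these letters are not in this stretch.

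In the adult, a single POL2 interval ran from 87320400 to 87403999, a width of 83.6 kb. It was the 7th widest of the adult list, whose median width was 4800 bp. It began 10.4 kb inside the left edge of the window and ended 16.0 kb before the right edge, and it covered 76.0% of the window. The adult library therefore listed POL2 over this stretch without a break.

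At PD12, POL2 was listed in 2 short pieces of the same stretch. The first ran from 87371400 to 87375199 (3.8 kb) and the second from 87397400 to 87403199 (5.8 kb). Neither was unusual in width, as 29.7% and 52.7% of PD12 POL2 intervals were narrower. Together they covered 9.6 kb, or 8.73% of the window and 11.5% of the adult interval.

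Both PD12 pieces lay wholly inside the adult interval and in its part of higher coordinates. From the start of the adult interval, the first 51.0 kb had no POL2 listed at PD12. The pieces were 22.2 kb apart, and the second ended 0.8 kb before the adult interval did. The right-hand ends of POL2 thus nearly coincided at the 2 stages, whereas the left-hand ends were 51.0 kb apart. In steps of 10 kb from the left edge of the window, adult POL2 filled every base of the steps from 20 to 90 kb, 9.6 kb of the step before and 4 kb of the step after. PD12 POL2 covered 3.8 kb between 60 and 70 kb, 2.6 kb between 80 and 90 kb and 3.2 kb between 90 and 100 kb, and none elsewhere.

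**Figure D1:**
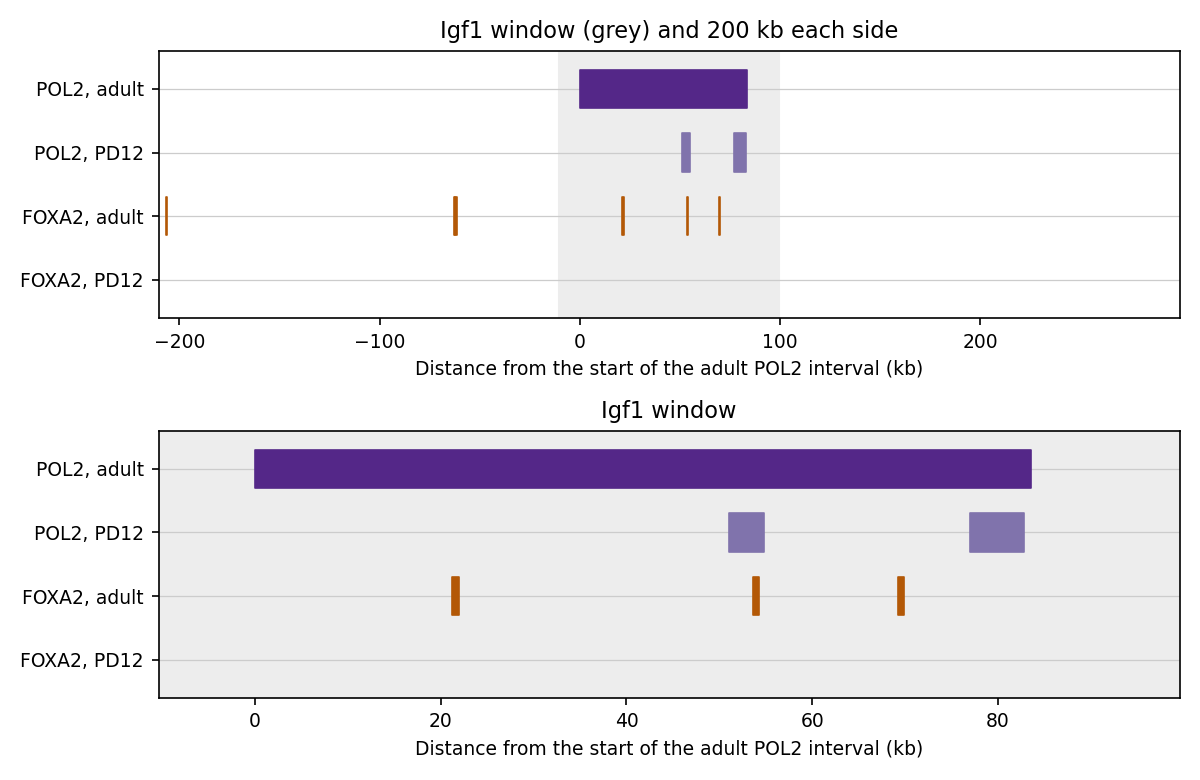
Intervals of the 4 lists by distance in kb from the start of the adult POL2 interval, over the window with 200 kb each side (top, window in grey) and over the window alone (bottom), with each bar an interval to scale. The single adult POL2 bar of 83.6 kb spans 2 PD12 POL2 bars and 3 adult FOXA2 bars, and no PD12 FOXA2 bar is present.

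The adult covered 83.6 kb of the window and PD12 covered 9.6 kb, a ratio of 8.71 and an excess of 74.0 kb. Over the whole lists adult POL2 covered 1.35 times as many bases as at PD12. For a view at the same width, the chromosomes were divided into tiles of the width of the window, and 6809 tiles had POL2 at either stage. Tiles can split a POL2 interval, whereas the window holds its adult POL2 interval whole, so the place of the window among tiles is not like for like. Of the 6809 tiles, 39.6% had at least 2 times as much cover in the adult as at PD12, and 12.2% the opposite. Adult cover of at least 2 times that at PD12 was thus common, with tiles without PD12 cover counted in. An excess larger than the 74.0 kb at Igf1 was found in 13 tiles. Among the 4697 tiles covered at both stages the median ratio was 1.21, and 66 had a higher ratio than the Igf1 window. Of the 24 tiles with at least as much adult cover as Igf1, 7 had as little PD12 cover or less, and the median PD12 cover of the 24 was 81.3 kb.

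**Figure D2:**
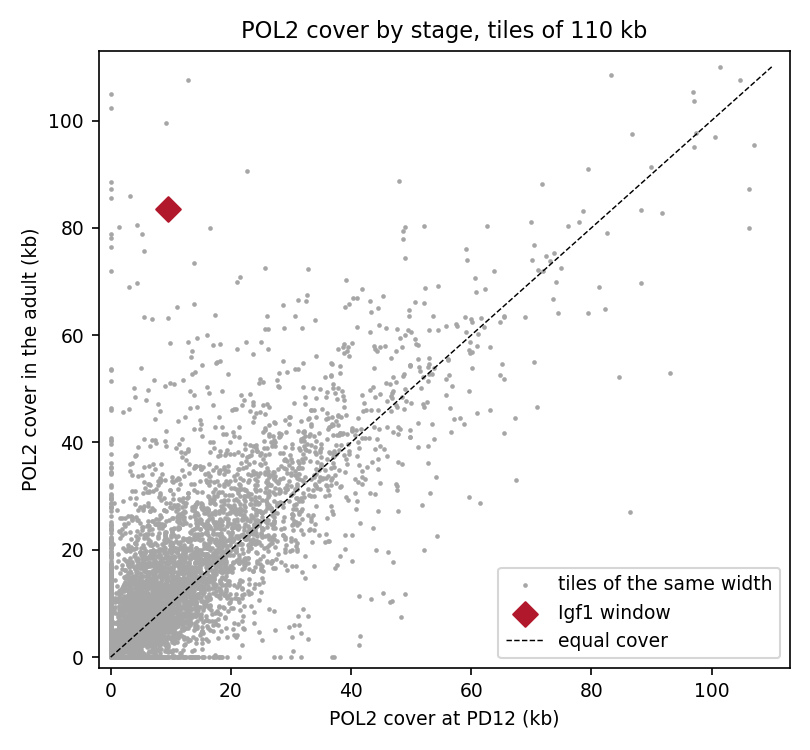
POL2 cover in kb at PD12 (horizontal) and in the adult (vertical) for each of 6809 tiles of the window width (grey points) and for the Igf1 window (red diamond), with equal cover as a dashed line. The Igf1 window, at 9.6 and 83.6 kb, lies far above the line, where few tiles lie. Unlike the window, the tiles were not placed around a POL2 interval.

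POL2 at Igf1 stood apart from the other POL2 of the chromosome. In the 200 kb to the left of the window and the 200 kb to the right, neither stage had any POL2 interval, so a ratio of stages cannot be given for the surroundings. In the adult, the next POL2 interval on the left was 1006.6 kb from the Igf1 interval, and the next on the right was 516.4 kb away. Of 14818 adult POL2 intervals, 1.13% had their nearest neighbour at least as far away, and the median distance was 6.4 kb. The PD12 pieces at Igf1 were nearest to each other, at 22.2 kb. For 35.1% of PD12 POL2 intervals the nearest neighbour was at least that far away. The nearest outer PD12 intervals were at nearly the same places, at 86306400 to 86311599 on the left and 87920400 to 87923399 on the right, where the adult ones were at 86305000 to 86313799 and 87920400 to 87928999. Both stages thus listed POL2 at the outer places, with widths of 5.2 and 3.0 kb at PD12 and 8.8 and 8.6 kb in the adult, while between them the cover differed by 74.0 kb, all of it inside the window.

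FOXA2 was listed in the window in the adult library and not in the PD12 library. The first adult interval was at 87341557 to 87342370 and was 814 bp wide, wider than 74.0% of the adult FOXA2 list. The second was at 87374023 to 87374648 (626 bp) and the third at 87389700 to 87390293 (594 bp), and 37.9% and 31.5% of the list were narrower. The FOXA2 intervals of the window were therefore of ordinary width, against a median of 685 bp.

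All 3 FOXA2 intervals lay inside the adult POL2 interval and away from its ends. Their centres were 21.6, 53.9 and 69.6 kb from its start, or 25.8%, 64.5% and 83.2% of the way along it. The third ended 13.7 kb before the end of the interval. The centres were 32.4 and 15.7 kb apart, and the median distance from an adult FOXA2 centre to the nearest other one in the list was 38.0 kb.

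One of the 3, the second, also lay inside a place with POL2 at PD12. It began 2623 bp after the start of the PD12 POL2 interval of 3.8 kb and ended 551 bp before its end. The first FOXA2 interval was 29.0 kb from the nearest PD12 POL2 interval and the third was 7.11 kb from it. Across the lists, 2012 adult FOXA2 intervals overlapped an adult POL2 interval, and 1050 of them (52.2%) also overlapped one at PD12.

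No PD12 FOXA2 interval was listed in the window or in the 200 kb on either side. The nearest were 566.5 kb to the left and 1745.9 kb to the right of the window. An empty window is the usual case for this short list, as 7.05% of the tiles with POL2 held any PD12 FOXA2 interval. The adult FOXA2 centres of the window were 598.6 to 646.6 kb from the nearest PD12 FOXA2 centre, close to the median of 675.4 kb for the whole adult list.

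Adult FOXA2 was also listed to the left of Igf1. The left 200 kb held 3 intervals and the right 200 kb held 0. A pair lay at 87257538 to 87258033 (496 bp) and 87258212 to 87258817 (606 bp), with 178 bp between them and 61.6 kb before the adult POL2 interval. The third, at 87113565 to 87114051 (487 bp), was 206.3 kb before it. To the right, the next adult FOXA2 interval was 556.9 kb beyond the window, at 87976939 to 87978145.

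The count of 3 in the window has an exact Poisson 95% interval of 0.619 to 8.77, and the 3 in the surroundings have the same. It covers counting error only. The window was chosen partly for its FOXA2 intervals, and the Poisson interval does not allow for that choice. Per length, adult FOXA2 stood at 27.3 intervals per Mb in the window and 7.5 per Mb in the surroundings. The adult POL2 interval held 35.9 FOXA2 intervals per Mb, all adult POL2 cover held 20.7 per Mb and the chromosomes as a whole held 3.94 per Mb. Of the tiles with POL2, 7.75% held at least 3 adult FOXA2 intervals. With 3 intervals these densities are imprecise. Those of the window and of its POL2 interval also rest on a count that entered the choice of the window.

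Igf1 was then set beside the other adult POL2 intervals at least 50% as wide, that is, of 41.8 kb or more. There were 45 with Igf1, and 28.9% of them were covered over less than 50% of their length at PD12. The other 44 were covered at PD12 over a median of 85.4% (interquartile range 46.4% to 96.5%), against 11.5% at Igf1. The 6 that were wider than Igf1 were covered over 91.8% to 98.6%. Only 5 of the 44 had as little PD12 cover as Igf1 or less, and none of these 5 had any PD12 POL2. Of these 5, those on chromosomes 5, 15 and 19 were pieces of longer stretches when POL2 gaps of up to 5 kb were joined. Those stretches were covered at PD12 over 13.5%, 9.9% and 15.3%. The joined stretches that hold the intervals on chromosomes 9 and 13 are not given here, so these may also be pieces of longer ones. As listed, Igf1 was the widest of the 13 intervals covered over less than 50% at PD12. Joined lengths are given only for the 5 stretches most like Igf1 in shares covered, so longer ones elsewhere are not counted. Among those 5, the stretches on chromosomes 5, 6 and 9 were longer than Igf1, at 194.4, 173 and 93.6 kb. They were covered at PD12 over 13.5%, 13.4% and 10.5%.

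Counted per interval as listed, Igf1 held as many adult FOXA2 intervals as any of these 45. The longer joined stretch on chromosome 5, counted here in pieces, held 4. At least 3 adult FOXA2 intervals were present in 6.67% of the 45, which is Igf1 and 2 others. Those were at chromosome 9, 48523800 to 48597799 (74.0 kb, no PD12 cover) and chromosome 10, 39319800 to 39371999 (52.2 kb, 92.7% covered at PD12). None of the 44 had more than 3, and 21 had none. A PD12 FOXA2 interval was present in 3 of the 44.

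**Figure D3:**
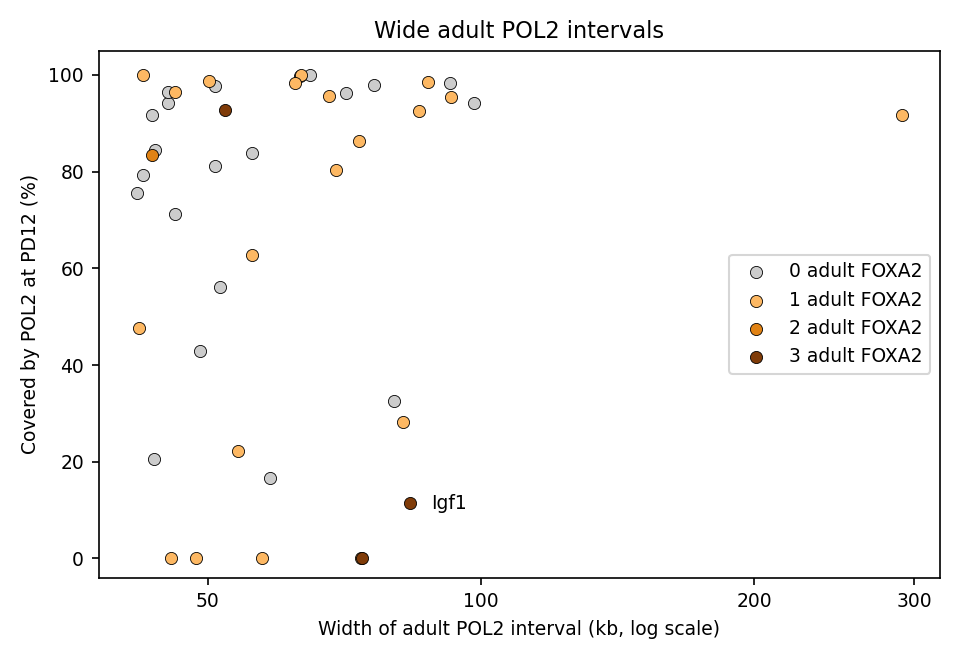
Width in kb (log scale) of each of the 45 widest adult POL2 intervals and the percent of it covered by POL2 at PD12, with the colour giving the number of adult FOXA2 intervals inside. Igf1 lies at 83.6 kb and 11.5% with 3 FOXA2 intervals, while the 6 wider ones lie at 91.8% or above.

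The places most like Igf1 in POL2 were found among stretches, made by joining POL2 of both stages across gaps of up to 5 kb. Of 11353 stretches, 378 were at least 50% as long as the Igf1 one, and the measure of likeness was the distance in the 2 shares covered, at PD12 and in the adult, with 1 library each. The nearest was at chromosome 9, 115992400 to 116085999, with 9.8 kb covered at PD12, 92.8 kb in the adult and no FOXA2 interval. The next was at chromosome 15, 66926800 to 66995799, with 6.8 and 68.2 kb and 1 adult FOXA2 interval. The others were at chromosome 6, 30999000 to 31171999 (23.2 and 169.8 kb, 1 FOXA2 interval), chromosome 5, 107524400 to 107718799 (26.2 and 189.4 kb, 4 FOXA2 intervals), and chromosome 19, 24032200 to 24106599 (11.4 and 72.4 kb, 1 FOXA2 interval). None of the 5 held a PD12 FOXA2 interval. The stretches are given by position because no annotation of their build was used.

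The place of the PD12 cover within the stretch differed between Igf1 and these 5. At Igf1 the first PD12 POL2 interval began 51.0 kb into the stretch and the last ended 82.8 kb into it. In the 5 others the first began 0.2 to 7.8 kb into the stretch, and the last ended 8.6 to 48.8 kb into it. All 5 thus had their PD12 cover toward lower coordinates, and Igf1 toward higher ones. The strand of the genes at the 5 is not known here, so this is an order along the chromosome and not along transcription. In each of the 4 with adult FOXA2, every FOXA2 interval lay beyond the last PD12 POL2 interval, whereas at Igf1 the first lay before both PD12 intervals, the second inside one and the third between them.

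**Figure D4:**
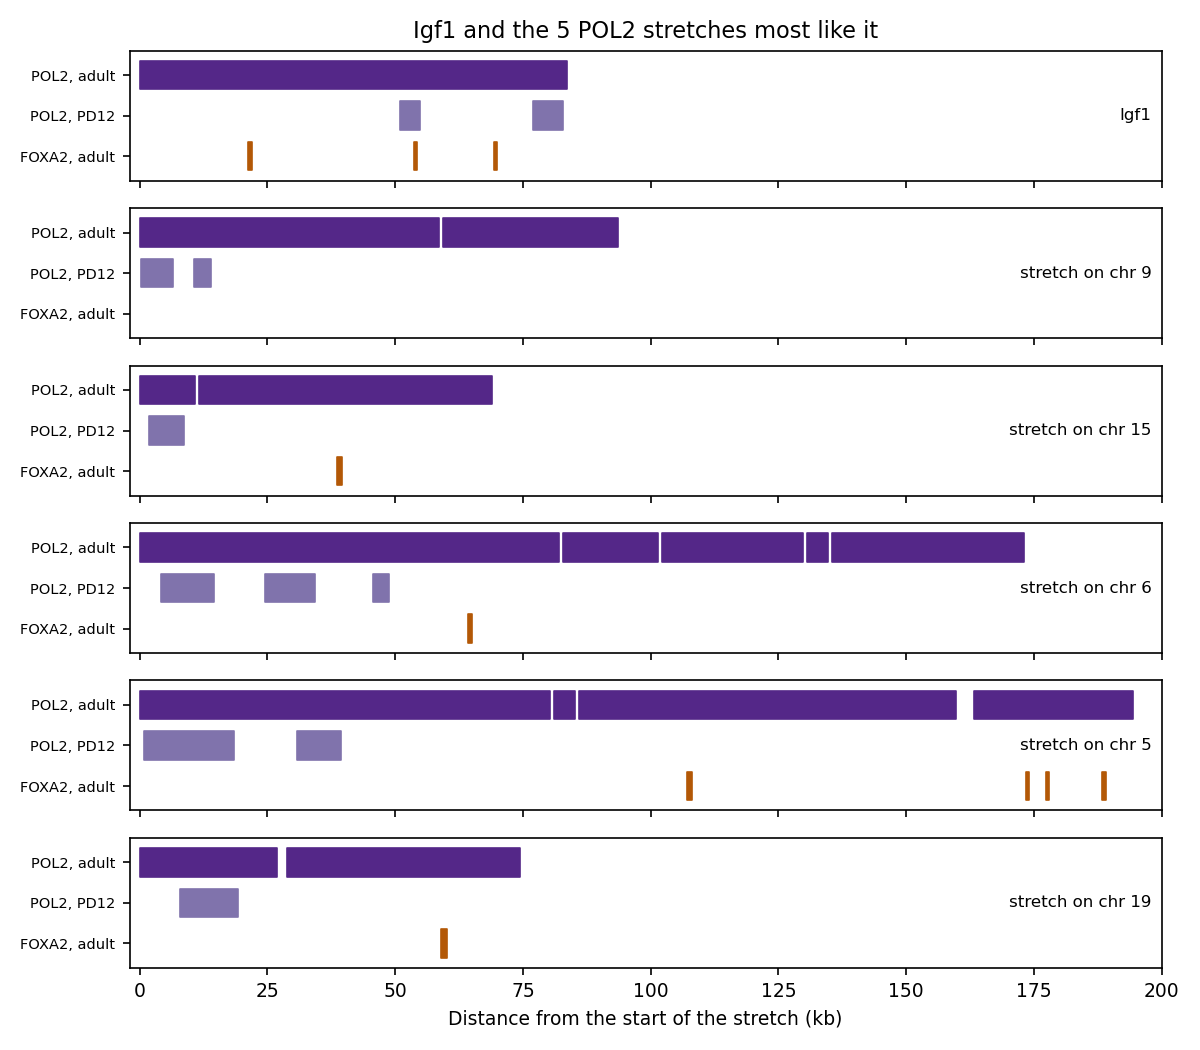
POL2 intervals of the adult and of PD12 and adult FOXA2 intervals, by distance in kb from the start of the stretch, for Igf1 (top) and the 5 stretches nearest to it in share covered, in order of likeness. PD12 POL2 begins 51.0 kb into the stretch at Igf1 and 0.2 to 7.8 kb into the 5 others.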

How the data were processed

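Per the file headers, each of the 4 deposited lists gives the chromosome, start and end of intervals called for 1 library. The submitters' processing notes name BWA without a version. Caller, threshold, build and any use of input are not given in the sources at hand. Positions were read as inclusive. Every POL2 start was a multiple of 200 bp. Because 260 intervals ended beyond the last GRCm38 gene of their chromosome, no GRCm38 coordinate was set against the lists, and IGF pathway genes were not placed. FOXA2 sequences were not read.

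Cover, counts, distances and tiles (cut from the first base of each chromosome) were computed with Python 3.11.15, numpy 2.4.6, pandas 2.3.3 and scipy 1.17.1. The cover calculation was tested on 20 simulated lists. Every interval in the window is named, and the 5 nearest stretches in share covered. The window, the measures and the comparisons were chosen with earlier results of these data known.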

Additional observations from a re-analysis of the deposited data

How the results depend on the processing

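Most of the 9 alternative settings could not move the values of the window, so their equal values say nothing about stability. No POL2 interval of the window is under 2 kb, its PD12 intervals are 22.2 kb apart, and its adult interval, 7th in width, stays in a list reduced to the 9972 widest. Leaving out narrow intervals, joining gaps of up to 5 kb and reducing the adult list therefore left cover and ratio at Igf1 as they were. All intervals of the window lie inside it also when it is narrowed, so counts and the ratio of stages, 8.71, were fixed under each change of its edges and when centres were counted. The share covered did depend on the edges. Adult POL2 covered 76.0% of the window, 64.3% when it was widened by 10 kb at each side and 92.9% when it was narrowed by 10 kb. Beside tiles that were not placed around a POL2 interval, the Igf1 window was 14th in adult excess. It was 18th with gaps of up to 5 kb joined and 11th with tiles begun 50% of a window later. The share of tiles with at least 2 times as much adult cover was 39.6%, and 28.2% with the adult list so reduced. With surroundings of 100 or 500 kb POL2 cover stayed at 0, so the planned ratio of stages there has no value. No paired analysis was possible because there is 1 library in each group. Unknown depth and threshold limit every comparison of lists.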

Other observations

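Among the 45 adult POL2 intervals of 41.8 kb or more, the 13 covered over less than 50% at PD12, Igf1 among them, held an adult FOXA2 interval in 9 cases, with 13 FOXA2 intervals in 0.792 Mb (16.4 per Mb). Without Igf1 it was 8 of 12, with 10 intervals (14.1 per Mb). The 32 covered over 50% or more held one in 15 cases, with 18 intervals in 2.17 Mb (8.31 per Mb). The difference was not tested, and the split was chosen after the values were seen.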
